A study of Mus musculus with 4 samples.

Results

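The genes described here are 9 genes known from blood stem cells: Hlf, Mecom, Prdm16, Mycn, Procr, Fgd5, Pdzk1ip1, Txnip and Ctla2a. They were chosen by symbol from earlier knowledge of stem cells, not by a threshold on these data, and each symbol matched 1 of the 31053 genes in the deposited matrices. Their levels were compared between 2 libraries of mouse bone marrow KLS cells, sorted for c-Kit and Sca-1 after removal of cells with lineage antigens, a gate that holds both stem cells and the progenitors that follow them. The labels give 4 mice of 8 to 12 weeks for the KLS sort, without saying whether that is the number per genotype, and each library pools its mice. The control library has the genotype Vav1-Cre/+STAT5ab+/+ and the STAT5 KO library Vav1-Cre/+STAT5abfl/fl, so that both groups have the Cre transgene. The Vav1 promoter drives Cre in blood-forming cells. A pair of much smaller libraries of stromal cells (MSC), sorted without CD45 and with Sca-1 and CD140a from mice of 6 to 8 weeks, with the same genotypes was used only to give the genes' levels outside KLS cells.

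Blood stem cells of adult bone marrow divide rarely and carry a set of transcription factors and surface proteins that fade as cells become committed progenitors. STAT5A and STAT5B are transcription factors activated by cytokine receptors on blood cells. Hlf, Mecom, Prdm16 and Mycn encode transcription factors. Procr encodes the endothelial protein C receptor EPCR (CD201), Fgd5 a guanine nucleotide exchange factor and Pdzk1ip1 a small membrane protein, and these are used as stem cell markers or reporters. Txnip encodes thioredoxin-interacting protein, which restrains glucose uptake, and Ctla2a an inhibitor of cysteine proteases.

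Each group was 1 library, so there was no test between groups and no p-value. All intervals are 95% intervals of counting error and do not cover differences between mice or preparations, and the library and the genotype cannot be told apart. In the KLS control library there were 3747 barcodes and 55138419 unique molecular identifiers (UMIs), and 3085 cells with a median of 15136 UMIs were kept. In the KO library there were 7511 barcodes and 82466835 UMIs, and 6726 cells with a median of 10085 UMIs were kept. Of the barcodes, 393 in the control and 295 in the KO library also occurred in another library of the series, and those with more UMIs elsewhere were left out. Levels are UMIs summed over cells per 1000000 UMIs (CPM). Stat5a was at 68.5 CPM in control and 6.74 CPM in KO, and Stat5b at 60.8 and 4.49 CPM, so the deleted genes were low but not at 0 in the library labelled KO. Ptprc, which encodes the blood cell protein CD45, was at 153.2 and 154.1 CPM. The 10 stromal markers summed to 1.41 and 2.003 CPM with 3 and 1 of them at 0, and the 8 endothelial markers, a cell type that also makes EPCR, summed to 88.3 and 71.9 CPM with none at 0. The 12 myeloid markers summed to 1275 CPM in control and 2023 CPM in KO, the 12 erythroid markers to 808.7 and 591.2 CPM, and the 18 stem and multipotent progenitor markers to 2189 and 1796 CPM. The part that these differences have in the levels below was not tested.

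All 9 genes were lower in KLS STAT5 KO than in control, and for all 9 the counting interval of the ratio lay below 0 on the log2 scale, where it did for 31.9% of all genes tested. The median log2 ratio of the 9 was -0.44, against -0.01 over the 11485 genes tested, those that had 100 or more UMIs in the pair of libraries and were seen in 2% or more of the cells of 1 of them. At least 1.2-fold lower were 7 of the 9, where 16.9% of all genes tested were. At least 1.5-fold lower were 4 of the 9, where 4.91% of all genes were, and 0 of the 9 were at least 1.2-fold higher, where 10.7% of all genes were. When each cluster of the KO library was weighted to the share of UMIs it has in control, the median was -0.12, 1 of 9, Hlf, stayed at least 1.2-fold lower and 0 at least 1.5-fold lower. This weighting raises the Vwf-led cluster described below, whose KO cells keep most of their Stat5 RNA, from 3.32% to 7.41% of KO UMIs. It also raises a cluster led by Cxcl10, which held 18.1% of control and 11.4% of KO cells, here as shares of cells and not of UMIs. Stat5 RNA in the KO cells of that cluster was at 5.07% of control. A cluster led by Ctsg, with 0.32% of control and 10.3% of KO cells, again as shares of cells, is lowered. The part of each cluster in the change was not tested. With cells under 1000 genes or over 5% mitochondrial UMIs dropped, 1 of 9, Fgd5, was at least 1.5-fold lower (-0.60), with Hlf at -0.55, Pdzk1ip1 at -0.54 and Procr at -0.37. The median mitochondrial share of cells was 4.44% in control and 2.91% in KO, and its part in the levels was not tested.

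**Figure D1:**
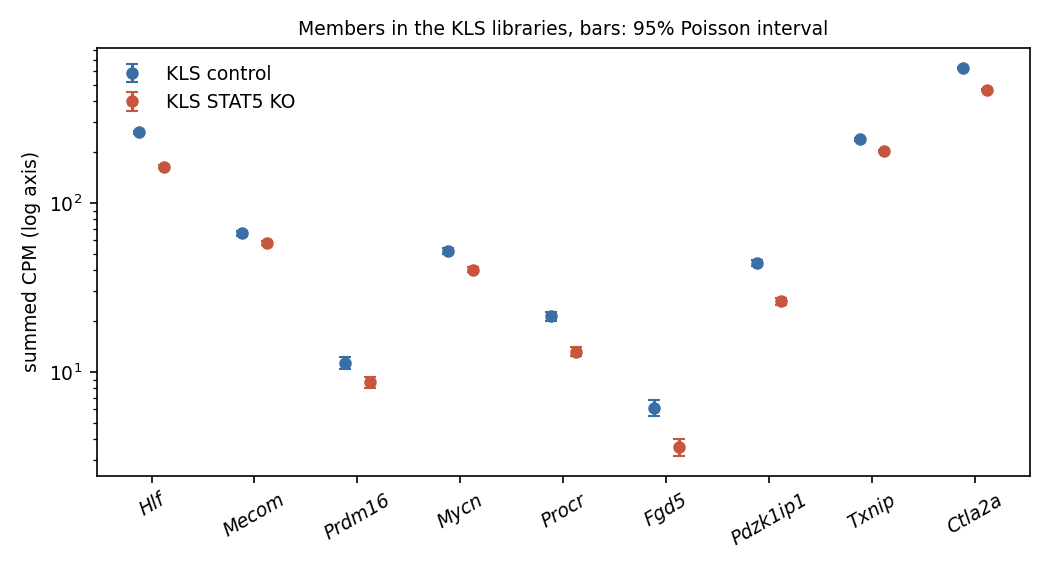
Summed CPM of the 9 genes (log axis) in KLS control (blue) and KLS STAT5 KO (red), 1 library each, with 95% Poisson intervals of counting error. Every red point lies below its blue neighbour, with the smallest gap for Mecom (65.9 and 57.8 CPM).

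Hlf, a transcription factor of the PAR bZIP family, is encoded on chromosome 11 from 90336536 to 90390895 (minus strand, GENCODE M21, GRCm38, as all gene positions here). Hlf was at 261.4 CPM in control (257.0 to 265.9) and 163.9 CPM in KO (161.0 to 166.8), a log2 ratio of -0.67 (-0.71 to -0.64). Both the share of cells with Hlf and the amount per positive cell were lower. With every cell thinned to 5000 UMIs, 59.8% of 3044 control cells and 46.2% of 5821 KO cells held a Hlf UMI, and positive cells held 2.58 and 1.94 UMIs on average.

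Mecom encodes the zinc finger factor EVI1, which is needed to keep stem cells, and lies on chromosome 3 from 29951296 to 30548008 (minus strand). Control cells had 65.9 CPM of Mecom (63.7 to 68.2) and KO cells 57.8 CPM (56.1 to 59.5). The log2 ratio of -0.19 (-0.26 to -0.13) was the nearest to 0 among the 9 genes and fell short of 1.2-fold. At 5000 UMIs a cell, 28.6% of control and 24.3% of KO cells held Mecom.

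Prdm16, a relative of Mecom, lies on chromosome 4 from 154316125 to 154636873 (minus strand). Its level was 11.3 CPM in control (10.4 to 12.2) and 8.71 CPM in KO (8.06 to 9.39), a log2 ratio of -0.37 (-0.53 to -0.21). The share of cells at equal depth was 6.08% in control and 4.74% in KO. Prdm16 was scarce, with 1.05 and 1.09 UMIs in a positive cell, so that little more than presence or absence could be read from a single cell.

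Mycn, a MYC family transcription factor that acts beside Myc in stem cells, lies on chromosome 12 from 12936093 to 12941914 (minus strand). Mycn was at 51.7 CPM in control (49.8 to 53.8) and 40.2 CPM in KO (38.8 to 41.7), a log2 ratio of -0.36 (-0.44 to -0.29). Fewer KO cells held it at equal depth (15.4% against 21.6%), while a positive KO cell held 1.59 UMIs against 1.49 in control. Over the whole KO library Mycn thus had fewer positive cells but not fewer UMIs in each of them on average. The Vwf-led cluster described below, whose KO cells keep most of their Stat5 RNA, held 25.8% of the control and 32.7% of the KO UMIs of Mycn. The part of that cluster in the average was not tested.

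Procr, the gene of EPCR, lies on chromosome 2 from 155751117 to 155755471 (plus strand). Procr was at 21.3 CPM in control (20.0 to 22.6) and 13.2 CPM in KO (12.4 to 14.0), a log2 ratio of -0.69 (-0.81 to -0.56). At equal depth 11.6% of control and 6.65% of KO cells were positive, a share 1.74-fold lower in KO.

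Fgd5, on chromosome 6 from 91978878 to 92076004 (plus strand), was at 6.14 CPM in control (5.48 to 6.86) and 3.57 CPM in KO (3.16 to 4.02). Its log2 ratio was -0.78 (-1.02 to -0.54). The share of positive cells at equal depth was 3.71% (113 cells) in control and 1.65% (96 cells) in KO, which is 2.25-fold lower. This was 1 random draw, with a difference of -2.06 points. The difference expected over all draws was smaller, -1.58 points (-2.38 to -0.85). Pdzk1ip1, on chromosome 4 from 115088708 to 115093899 (plus strand), was at 44.1 CPM in control (42.3 to 46.0) and 26.1 CPM in KO (25.0 to 27.3), a log2 ratio of -0.76 (-0.84 to -0.67). Its share of cells was 20.1% in control and 11.9% in KO. The 3 surface and signalling markers Procr, Fgd5 and Pdzk1ip1 were thus each at least 1.5-fold lower over all kept cells, as Hlf was.

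Txnip, on chromosome 3 from 96557957 to 96561883 (plus strand), was at 237.5 CPM in control (233.3 to 241.8) and 201.9 CPM in KO (198.7 to 205.1). The log2 ratio of -0.23 (-0.27 to -0.20) fell short of 1.2-fold. The gene was found in most cells of both libraries, 65.5% of control and 57.8% of KO cells at equal depth.

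Ctla2a, on chromosome 13 from 60934155 to 60936625 (minus strand), was at 627.6 CPM in control (620.8 to 634.5) and 463.6 CPM in KO (458.8 to 468.5), a log2 ratio of -0.44 (-0.46 to -0.42). Nearly every cell held it, 88.0% of control and 82.4% of KO cells at equal depth, and the amount per positive cell was 4.12 UMIs in control and 3.12 in KO. The neighbouring gene Ctla2b is closely related in sequence, so the assignment of reads between the pair is uncertain. Ctla2b was at 12.6 and 8.90 CPM, lower in KO as well.

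STAT5 dimers bind the palindromic motif TTCNNNGAA, which reads the same on both strands. The 250 bases before the annotated start were searched for it in the 11 RefSeq promoter windows (GRCm38.p6) of the 9 genes, all of which matched by symbol. Only the 2 overlapping windows of Ctla2a held a match, where 7.02% of 32851 promoter windows of this length in the genome do. The Ctla2a window is shown because it holds the only match, and the Hlf window as an example without one, although the log2 ratio of Hlf was further from 0. Capitals mark the motif, which begins 157 bases before the start, and both windows are written 5′ to 3′ on the minus strand.
Ctla2a, chr13:60936626-60936875: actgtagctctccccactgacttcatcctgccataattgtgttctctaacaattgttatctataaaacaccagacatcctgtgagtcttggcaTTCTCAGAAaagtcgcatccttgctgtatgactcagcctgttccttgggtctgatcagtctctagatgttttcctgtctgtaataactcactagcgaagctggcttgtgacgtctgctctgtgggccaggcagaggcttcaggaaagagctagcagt
Hlf, chr11:90390918-90391167: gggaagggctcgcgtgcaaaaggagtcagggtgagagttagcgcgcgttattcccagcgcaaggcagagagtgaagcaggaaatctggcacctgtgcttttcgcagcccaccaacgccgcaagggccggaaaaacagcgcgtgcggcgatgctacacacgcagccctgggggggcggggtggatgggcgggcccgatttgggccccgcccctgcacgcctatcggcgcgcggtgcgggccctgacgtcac
A match is a description of these letters, and the absence of a match says only that they are not in this window.

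Control cells held more UMIs than KO cells in the median, and a cell with more UMIs is more likely to show a scarce gene. The shares above were therefore taken after each cell was thinned at random to 5000 UMIs, which left out 41 control and 905 KO cells that were shallower. Without thinning, Procr was found in 23.9% of control and 11.7% of KO cells, Mycn in 40.0% and 23.8%, Pdzk1ip1 in 36.2% and 19.4% and Hlf in 80.2% and 62.8%. At equal depth the share was lower in KO beyond counting error for 9 of the 9 genes, where 23.1% of 10335 genes tested were. The interval of Prdm16 held 0 at 3000 UMIs (-0.43 points, -1.24 to 0.30) and that of Mecom outside the Vwf-led cluster (-1.37, -3.33 to 0.56) and with cells under 1000 genes or over 5% mitochondrial UMIs dropped (0.082, -1.99 to 2.11). Under that filter the differences of Procr (-1.94 points) and Pdzk1ip1 (-3.35 points) were also smaller than over all kept cells (-4.95 and -8.22 points). With at least 2 UMIs asked of a cell, the intervals of Prdm16 and Fgd5 held 0. The share at equal depth was at least 1.2-fold lower for 6 of the 9, all but Mecom, Txnip and Ctla2a, where 14.8% of all genes were. The largest difference in points was that of Hlf, -13.6 points (-15.7 to -11.4), and the smallest that of Prdm16, -1.34 points (-2.38 to -0.35).

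**Figure D2:**
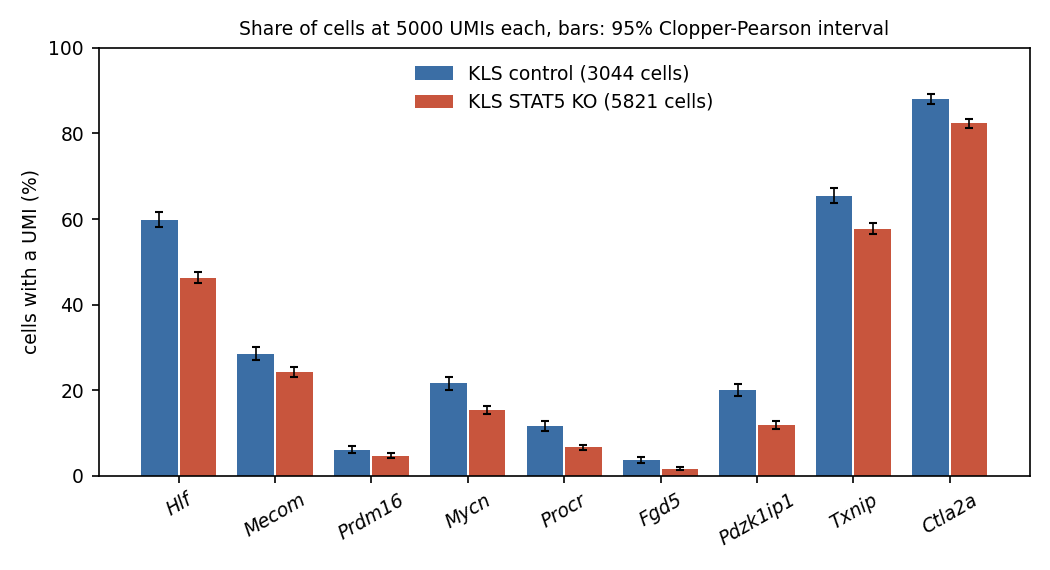
Percent of cells with at least 1 UMI of each gene after thinning each cell to 5000 UMIs, in KLS control (blue, 3044 cells) and KLS STAT5 KO (red, 5821 cells), with 95% Clopper-Pearson intervals. The red bar is lower for each of the 9 genes, among them Ctla2a with the highest shares (88.0% and 82.4%) and Fgd5 with the lowest (3.71% and 1.65%).

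Free RNA can place UMIs in cells that do not express a gene. The clusters below may express these genes themselves, and the part of free RNA in their values was not tested. In the stromal sort, erythroid-like cells held 79 of 80 control and 51 of 52 KO UMIs of Pdzk1ip1. In the Dntt-led cluster, which took no name and has genes such as Dntt, Il7r, Clec12a and Irf8 among its leading ones (median 21527 UMIs in control and 15692 in KO before thinning), Procr was found in 0.81% of 246 control and 1.42% of 702 KO cells at 5000 UMIs, Pdzk1ip1 in 0.41% and 0.57%, Mycn in 5.69% and 6.70%, Mecom in 11.4% and 12.0%, Prdm16 in 1.63% and 2.14% and Hlf in 29.3% and 23.6%. In the erythroid-like cluster (median 33832 and 13468 UMIs) Hlf was found in 5.88% of 34 control and 12.6% of 127 KO cells, Mecom in 11.8% and 5.51%, Mycn in 2.94% and 10.2%, and Pdzk1ip1 in 5.88% and 10.2%. The shares of these 6 genes over all KLS cells stood above the point values in both clusters, in both libraries. The share of Fgd5 in KO, 1.65%, lay within the interval of the erythroid-like KO cells, 0.79% (0.02% to 4.31%). The KO shares of Mycn (15.4%) and Pdzk1ip1 (11.9%) lay within their intervals there as well, 5.56% to 16.9% for each. So did that of Prdm16 (4.74%), where the interval was 0.19% to 5.57%. In control the shares of Prdm16 (6.08%) and Fgd5 (3.71%) lay within the wide intervals of the 34 erythroid-like cells. For Txnip and Ctla2a no cluster was near 0, with Txnip in 47.1% and 48.0% and Ctla2a in 41.2% and 40.2% of erythroid-like cells, so their shares carry little information and their levels are the better measure.

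Within cells of like depth, which were not matched for cluster, all 9 genes were lower in KO too. Cells were divided by their unthinned depth into bands of 5000 to 10000, 10000 to 15000, 15000 to 20000 and 20000 to 30000 UMIs, with 871, 617, 649 and 685 control and 2421, 1889, 883 and 494 KO cells. All 36 log2 ratios of the 9 genes in the 4 bands lay below 0, and so did all 36 counting intervals. Of all genes tested 9.26% had an interval below 0 in every band. In the shallowest band Hlf was at 478.1 CPM in control and 219.7 CPM in KO, a log2 ratio of -1.12 (-1.19 to -1.05). Procr was at 57.3 and 23.0 CPM there, a log2 ratio of -1.32 (-1.52 to -1.11). Mecom, which differed least over all cells, was at 66.7 and 42.6 CPM in the band of 15000 to 20000 UMIs, a log2 ratio of -0.65 (-0.80 to -0.49). The median over the 9 genes in the bands was -0.71, -0.62, -0.83 and -0.76, each further from 0 than over all cells, although Hlf was nearer to 0 in the band of 10000 to 15000 UMIs (-0.55). Within either library each gene was at a higher level in the shallowest band than in the deepest: Hlf in control went from 478.1 CPM in the shallowest band to 205.8 CPM in the deepest. Depth also differed inside clusters. The median depth fell from 9176 UMIs (control) to 5773.5 (KO) in the Cxcl10-led cluster. It fell from 22240.5 to 13820 in a cluster led by Aspm and from 21527 to 15692 in the Dntt-led cluster. A band can therefore hold a different mix of clusters from each library. The part of that mix in these ratios was not tested. With KO clusters weighted to control, the median over the 9 genes was nearer to 0, at -0.12.

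**Figure D3:**
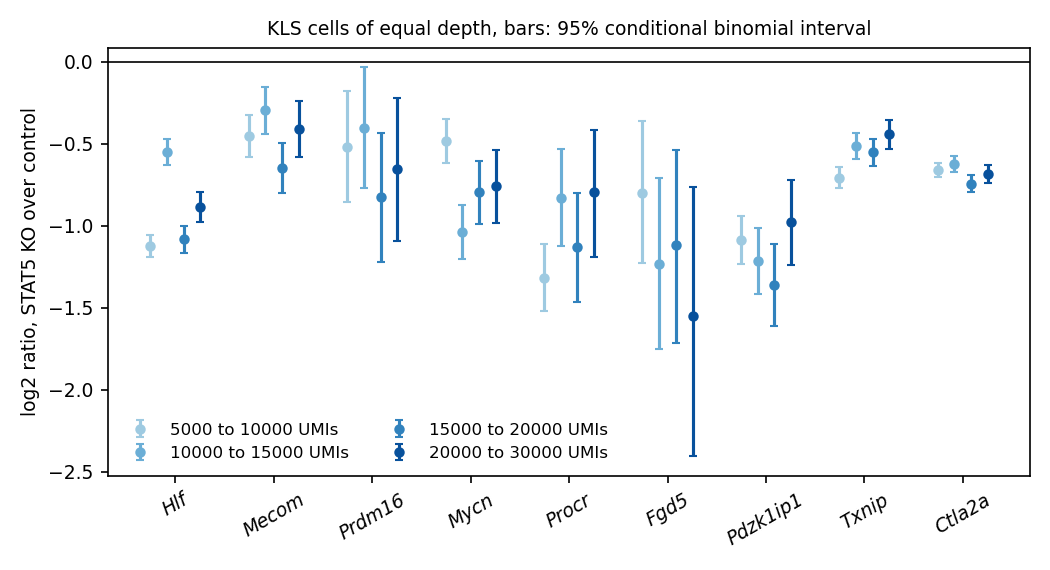
Log2 ratio of STAT5 KO over control for the 9 genes in KLS cells of 4 bands of depth (light to dark blue), with 95% conditional binomial intervals. All 36 points and intervals lie below 0, from -0.30 for Mecom in the band of 10000 to 15000 UMIs to -1.55 for Fgd5 in the deepest band.

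Cells that held Hlf, Mecom and Procr together were counted because the 3 genes in 1 cell mark stem cells more narrowly than each gene alone. At 5000 UMIs, 158 of 3044 control cells (5.19%, 4.43% to 6.04%) and 129 of 5821 KO cells (2.22%, 1.85% to 2.63%) held all 3. The share was 2.34-fold lower in KO, a difference of -2.97 points (-3.89 to -2.13). Without thinning the shares were 16.5% and 6.01%, and the difference expected over all random draws to 5000 UMIs was -2.58 points (-3.48 to -1.75). In both libraries the 3 genes met in 1 cell more often than the product of their single shares gives, by 2.62 times in control and 2.97 times in KO. The difference was -1.05 points (-1.90 to -0.30) when cells under 1000 genes or over 5% mitochondrial UMIs were dropped, a filter that kept 199 of 385 control and 307 of 312 KO cells of the Vwf-led cluster described below.

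The other genes were read in these same cells by how many of the 3 genes a cell held. In control, Pdzk1ip1 went from 20.6 CPM in cells with none of Hlf, Mecom and Procr to 53.1, 96.8 and 179.7 CPM in cells with 1, 2 and 3 of them. Fgd5 went from 3.26 to 21.5 CPM, Txnip from 202.9 to 626.6 CPM and Prdm16 from 6.72 to 30.4 CPM between cells with none and cells with all 3. In KO the same order was seen, with Pdzk1ip1 at 17.96, 28.6, 61.3 and 176.7 CPM. In the cells with all 3 genes, Pdzk1ip1, Txnip, Prdm16 and Fgd5 had overlapping intervals between the libraries. In those cells control had 140.5 CPM of Mycn (115.6 to 169.2) and KO 279.1 CPM (239.8 to 322.9), and thus more, while Ctla2a was at 932.9 CPM (866.8 to 1003) and 747.3 CPM (682.1 to 817.1), lower in KO. For these levels the cells were not divided by cluster or by Stat5 RNA. The log2 ratio of Mycn was 1.14 in the Vwf-led cluster described below, whose KO cells keep most of their Stat5 RNA, and -0.57 outside it. The part of that cluster in the Mycn levels here was not tested.

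Over all 36 pairs of the 9 genes, the share of cells with both was compared with the product of the shares. The ratio was above 1 for 36 of 36 pairs in control, with a median of 1.29, and for 35 of 36 in KO, with a median of 1.38. The lowest was that of Fgd5 and Ctla2a, 1.01 in control and 1.00 in KO. The highest was 2.20 for Fgd5 and Pdzk1ip1 in control and 4.54 for Procr and Fgd5 in KO, a pair with 1.83 in control. The ratio was higher in KO for 30 of the 36 pairs, but its possible range widens as the single shares get smaller, and all 9 shares were smaller in KO. The phi coefficient, a correlation of presence over cells, was higher in KO for 15 of the 36 pairs and lower for 21, among them all 8 pairs with Hlf (Hlf and Mecom 0.21 in control and 0.16 in KO). For Mycn and Pdzk1ip1, the highest pair by phi in both libraries, it was 0.22 in control and 0.25 in KO. The 2 measures thus gave no common direction. The pairs share cells and genes and are not independent, and these ratios are a description. The ratio was not computed for pairs of other genes, so the counts above 1 have no share over all genes beside them. They are not read as particular to the 9 genes. At least 3 of the 8 genes other than Txnip were found in 43.3% of control cells (41.5% to 45.0%) and 27.8% of KO cells (26.7% to 29.0%), and at least 5 in 7.79% and 3.45%.

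**Figure D4:**
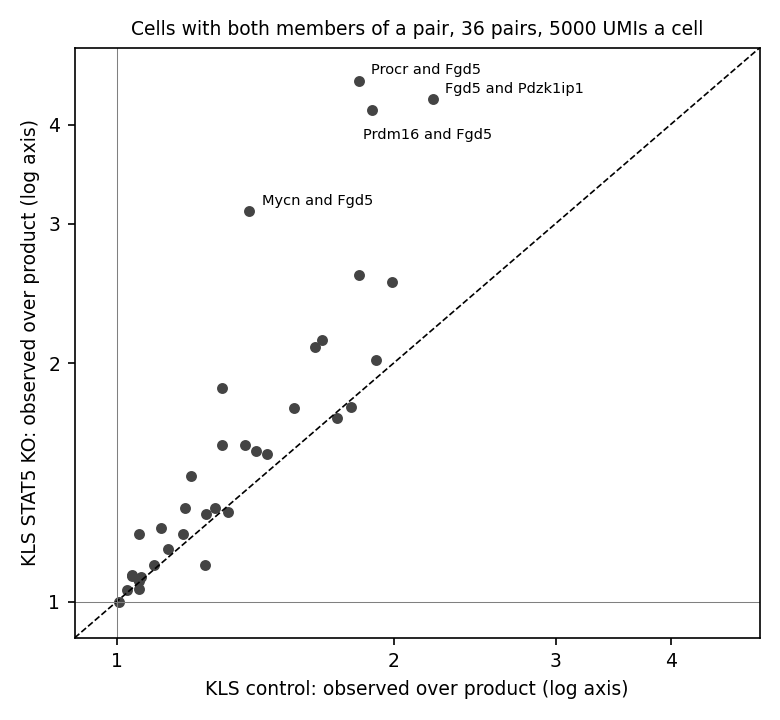
Observed share of cells with both genes of a pair over the product of the single shares, for 36 pairs at 5000 UMIs a cell, in control (x axis) and STAT5 KO (y axis), both log axes, with the line of equality dashed. Of the 36 points 30 lie above the line, and the highest in KO are pairs with Fgd5, while by the phi coefficient 15 of the 36 pairs were higher in KO.

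By the rule fixed for this, the 3 genes with the highest correlation over 3044 control cells, among 10239 genes, were found for each of the 9. The cells share 1 library, all were thinned to the same depth, and the correlations are weak in these sparse counts. For Pdzk1ip1 they included Mmrn1 (r = 0.30) and Apoe (0.30), with 0.30 and 0.32 in KO. For Mycn they included Pdzk1ip1 (0.27) and Apoe (0.22), with 0.33 and 0.29 in KO. For Hlf they were Ifitm1 (0.35), Malat1 (0.34) and Car2 (0.32), with 0.14, 0.26 and 0.21 in KO. Mecom gave Hlf, Ifitm1 and Malat1, Procr gave Ifitm1, Hlf and Pdzk1ip1, Fgd5 gave Ifitm1, Mllt3 and Pdzk1ip1, Txnip gave Hlf, mt-Co1 and Ltb, and Ctla2a gave Car2, Malat1 and Hlf. Prdm16 had no gene above 0.11, with Clec1a, Art4 and Mmrn1 first. For 6 of the 9 genes another of the 9, Hlf or Pdzk1ip1, was thus among the 3 most alike.

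Both KLS libraries were clustered together without the 9 genes, Stat5a and Stat5b, to see where the genes lie. None of the 15 clusters had 3 or more of the 18 stem and multipotent progenitor markers among its 10 leading genes, so none is called stem-like. The cluster with the most, 2 (Tgm2 and Mllt3), was led by Vwf, which encodes von Willebrand factor, and is called the Vwf-led cluster here. It held 385 control cells with a median of 8178 UMIs and 312 KO cells with a median of 7108. In control 8 of the 9 genes had their highest level of all clusters there, and only Ctla2a had it elsewhere, at 1028 CPM in a cluster led by Cxcl10. In control the cluster held 7.41% of all UMIs but 33.7% of the Pdzk1ip1 UMIs, 32.8% of those of Fgd5, 30.8% of those of Procr and 25.8% of those of Mycn. In KO it held 3.32% of all UMIs and 27.8%, 36.3%, 23.6% and 32.7% of those 4 genes. The share of cells in the cluster is not compared between the libraries, since Vwf, a gene that defines it, was at 35.4 CPM in its control cells and 271.8 CPM in its KO cells.

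Inside the Vwf-led cluster 2 of the 9 genes, Hlf and Ctla2a, had intervals below 0, where 11.7% of all genes tested did, and 5 had intervals above 0, where 11.1% did. Hlf was at 630.0 CPM in control (605.0 to 655.8) and 336.1 CPM in KO (313.9 to 359.4), a log2 ratio of -0.91 (-1.02 to -0.79). Ctla2a was at 965.5 CPM (934.4 to 997.3) and 581.5 CPM (552.2 to 611.9), a log2 ratio of -0.73 (-0.82 to -0.64). Both were lower in KO by more than over all cells. Control cells of the cluster had 180.0 CPM of Mycn (166.7 to 194.0) and KO cells 396.9 CPM (372.7 to 422.2), a log2 ratio of 1.14 (1.00 to 1.28), so that Mycn was higher in KO there. At 5000 UMIs, 46.3% of 374 control and 76.3% of 274 KO cells of the cluster held Mycn.

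Of the other 6 genes 4 had intervals above 0 inside this cluster and 2 had intervals that held 0. With Mycn counted, 5 genes thus had intervals above 0, but only Mycn did when the 9 genes were used in the clustering or when doublets were kept, and only Mycn and Txnip at Leiden resolution 2. Mecom was at 206.9 and 234.3 CPM (log2 0.18, 0.02 to 0.34), Prdm16 at 27.7 and 37.9 CPM (0.45, 0.04 to 0.86) and Fgd5 at 27.2 and 39.1 CPM (0.52, 0.11 to 0.93). Txnip was at 617.9 and 715.6 CPM (0.21, 0.12 to 0.30). The intervals of Procr, at 88.4 and 93.9 CPM (0.09, -0.16 to 0.33), and of Pdzk1ip1, at 200.6 and 218.5 CPM (0.12, -0.04 to 0.28), held 0. Of all genes tested 1.42% had an interval above 0 in the cluster and below 0 outside it, as these 4 and Mycn had. The median of the 9 genes in the cluster was 0.18, against -0.55 over the KLS cells outside it. Outside the cluster all 9 genes were lower in KO with intervals below 0, where 30% of all genes tested were, and Mycn was at 41.5 CPM in 2700 control cells and 28.0 CPM in 6414 KO cells (-0.57, -0.66 to -0.48). The share of cells with Hlf, Mecom and Procr together outside the cluster differed by -1.34 points (-2.05 to -0.72), less than over all cells.

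**Figure D5:**
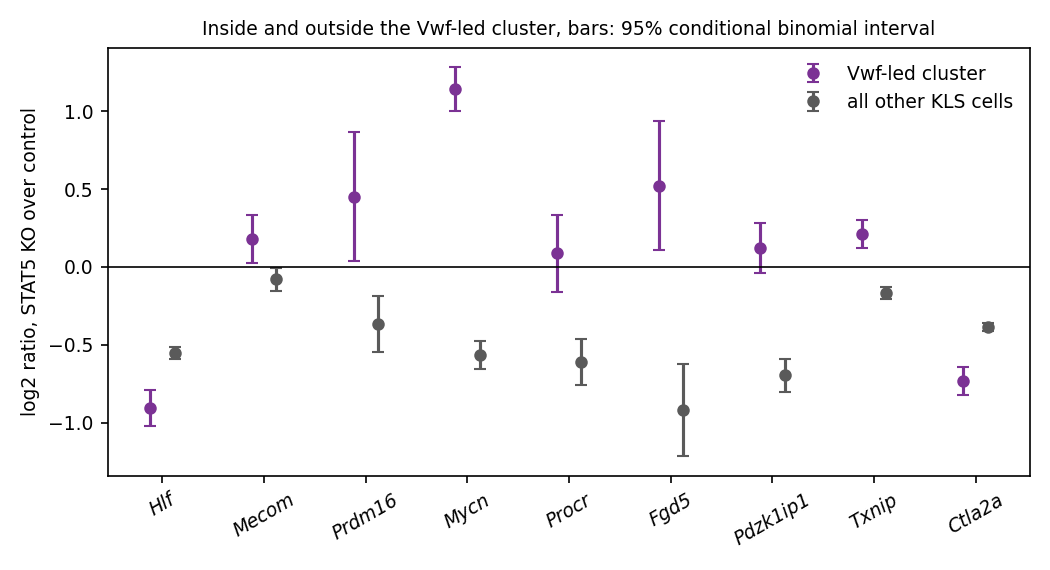
Log2 ratio of STAT5 KO over control for the 9 genes in the Vwf-led cluster (purple, 385 control and 312 KO cells) and in all other KLS cells (grey, 2700 and 6414 cells), with 95% conditional binomial intervals. Hlf and Ctla2a lie below 0 in both, and Mycn lies at 1.14 in the cluster and -0.57 outside it.

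The KO cells of the Vwf-led cluster carried Stat5 transcripts. Stat5a and Stat5b together were at 158.9 CPM in its control cells and 122.3 CPM in its KO cells, 77.0% of control (66.9% to 88.4%), where the other 14 clusters ranged from 0.56% to 28.3%. The KO values of this cluster are therefore not those of cells without Stat5 RNA. Its 312 KO cells were divided into 170 with a Stat5a or Stat5b UMI and 142 without, a division by the targeted genes and not by the genes described, in which a cell without a UMI may still carry the RNA. Against the control cells of the cluster, the log2 ratio of Hlf was -1.02 with and -0.75 without such a UMI, that of Mycn 1.25 and 0.97 and that of Ctla2a -0.69 and -0.79. The 3 genes kept their direction in both. Markers of other cells also differed in the cluster. The 12 lymphoid markers summed to 611.8 CPM in control and 1667 CPM in KO. Of the KO sum, Igkc, found in 0.96% of the KO cells, was 775.6 CPM and Ighm 226.0 CPM. Ighm was found in 6.23% of control and 3.53% of KO cells. Also on that list, Mef2c was at 375.8 and 538.1 CPM, and Flt3 went the other way, at 48.8 and 10.7 CPM. The 11 megakaryocyte markers, Vwf among them, summed to 442.6 and 771.2 CPM. The 12 erythroid markers summed to 1010 and 1009 CPM and the 12 myeloid markers to 421.5 and 501.0 CPM. The part of these markers in the result was not tested.

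Over the whole KO library the cells with a Stat5a or Stat5b UMI held more of the genes that were high in the Vwf-led cluster. At 5000 UMIs, Mycn was found in 45.7% of 265 KO cells with such a UMI and 13.9% of 5556 without, Pdzk1ip1 in 46.8% and 10.2%, Prdm16 in 16.6% and 4.18% and Mecom in 44.2% and 23.3%. Hlf was found in 52.8% and 45.9%, and Ctla2a in 83.0% and 82.3%. As ratios, the shares of Ctla2a and Hlf were thus the nearest to equal of the 9 genes in this split. Such cells are chosen by a UMI and were not matched for type.

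In the 13 clusters with at least 30 cells in each library there were 117 pairs of a gene of the 9 and a cluster, of which 40 had an interval below 0 and 10 above 0, where 8.15% and 11.3% of such pairs over all genes tested did. Hlf was below control with an interval below 0 in 9, Ctla2a in 8, Mycn in 7 and Pdzk1ip1 in 5. Mycn was above control in 1 cluster, the Vwf-led. Mecom was below in 0 and above in 3, and Txnip below in 3 and above in 4. No cluster thus had a Mecom interval below 0, while most had one for Hlf.

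Of 38 other stem cell genes listed for comparison, 37 passed the minimum for a test, all but Mycl. Their median log2 ratio was -0.16. Of the 37, 13 were at least 1.2-fold lower, 6 at least 1.5-fold lower and 2 at least 1.2-fold higher in KO. Of all genes tested 16.9%, 4.91% and 10.7% were. The lowest were Ndn (-1.29), Ltb (-1.10, 70.9 to 33.0 CPM), Cdkn1c, a cell cycle inhibitor of quiescent stem cells (-0.95), Robo4 (-0.93), Tek (-0.66) and Sult1a1 (-0.64). Esam (-0.53), Ly6a, which encodes the sorting marker Sca-1 (-0.42), Ifitm1 (-0.31), Gcnt2 (-0.31), Slamf1 (-0.30), Clec1a (-0.28) and Ifitm3 (-0.27) were between 1.2-fold and 1.5-fold lower. Vwf was higher (1.21, 1.05 to 1.38), as was Hoxb5 (0.26), whose interval of -0.04 to 0.57 held 0. The transcription factors Gata2 (0.01), Fli1 (0.02), Erg (0.05) and Runx1 (0.11, 0.07 to 0.15) lay within 0.11 of 0. On the same list Meis1 (-0.15, -0.18 to -0.11), Lmo2 (-0.15, -0.17 to -0.13) and Tal1 (-0.12, -0.19 to -0.06) had intervals below 0. Of the 37 genes, 24 had an interval below 0 and 4 above 0, where 3658 and 3561 of the 11485 genes tested did. Ly6a encodes a protein used in the sort of both libraries, so its level is bounded by the gate.

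In the libraries of sorted stromal cells 577 control and 374 KO cells were kept, with medians of 2732 and 2496 UMIs. Stat5a was at 39.9 and 55.0 CPM and Stat5b at 50.2 and 46.7 CPM there, so neither gene was lost from these cells. Ctla2a was at 0 UMIs in control, which allows up to 0.52% of cells with a UMI at this depth and sets no limit on cells that express the gene, and at 1 UMI in KO. Procr was at 98.7 CPM in control (84.5 to 114.6) and 41.7 CPM in KO (30.9 to 55.0), a log2 ratio of -1.24 (-1.73 to -0.78). It lay mostly in 1 cluster led by Pi16, with 134 of 173 UMIs in control and 43 of 50 in KO. Within that cluster Procr was at 586.0 CPM in control and 342.5 CPM in KO. The log2 ratio there, -0.77 (-1.31 to -0.27), was nearer to 0 than over the whole libraries. Pdzk1ip1 lay almost wholly in the erythroid-like cells of the sort, with 79 of 80 and 51 of 52 UMIs. Txnip was at 476.4 CPM (444.6 to 509.8) and 408.6 CPM (373.2 to 446.4), a log2 ratio of -0.22 (-0.39 to -0.06). Within single clusters no Txnip interval lay below 0. Those of the erythroid-like (1.37, 0.63 to 2.14), Bglap2-led (0.67, 0.003 to 1.33) and Chodl-led (1.21, 0.26 to 2.11) clusters lay above 0, and the others held 0. A Col9a2-led cluster, with Txnip at 104.4 and 85.0 CPM, held 1.04% of control and 6.68% of KO cells. Its part in the summed ratio was not tested. Over the whole libraries Procr and Txnip were the 2 of the 9 whose interval lay below 0, where 16.4% of the 4533 genes that passed the minimum in these libraries did. Of the 9 only these and Pdzk1ip1 passed it, and Hlf, Mecom, Prdm16, Mycn and Fgd5 had between 3 and 39 UMIs in a library.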

How the data were processed

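Cells of 4 libraries, 1 per group, were profiled by 10x Chromium 3′ sequencing (v3), per the labels' protocols. The deposited matrices hold raw UMI counts per gene and barcode that the authors made with Cell Ranger on GRCm38 (mm10), per the submitters' processing notes, with software version 3.1.0 per the file headers. The rule for strand is not given in the sources used here, so overlapping genes are uncertain. No column of values lacked a sample (0 columns).

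Cells under 200 genes or over 10% mitochondrial UMIs were dropped. The highest Scrublet scores (scanpy 1.11.5) were left out at 0.8% per 1000 barcodes, 112 and 451 barcodes in the KLS control and KO libraries. Barcodes with more UMIs in another library were left out (388 and 281). Free RNA was not corrected. Counts were summed over cells and divided by the summed UMIs of all genes to give CPM. Sums carry exact Poisson intervals, ratios exact conditional binomial intervals, shares exact Clopper-Pearson intervals and differences of shares Newcombe intervals, all at 95% and for counting error only. A share of 0 allows 3 counts of the total. With 1 library per group no p-value was computed. Cells were thinned without replacement (seed 0). Clustering used log counts per 10000, 2000 variable genes, 30 components, 15 neighbours and Leiden resolution 1 (igraph 0.11.9). A cluster took a name with at least 3 markers of a class among its 10 leading genes. No cluster met this for stem cells, so the cluster with the most of those markers was used without a name.

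Named were all 9 genes, the listed stem cell genes beyond 1.2-fold, and for each of the 9 the 3 most correlated genes. Meis1, Lmo2, Tal1, the 4 listed genes near 0 and the marker genes of the Vwf-led cluster were named after their values were seen. The members, lists and tests were chosen with earlier results of these data known. 1 gene of the list of other stem cell genes, and a comparison that chose cells by transcripts in place of the Vwf-led cluster, are not reported here. Other alternatives covered cell filters, doublets, shared barcodes, scaling (edgeR 4.0.16 TMM factors), thinning depth, detection and clustering. The ratios and intervals were tested on simulated counts. Python 3.11.15, scipy 1.17.1 and R 4.3.3 were used.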

Additional observations from a re-analysis of the deposited data

Results flagged for a closer look

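For 5 of the 9 genes the counting interval of the log2 ratio of STAT5 KO over control lay above 0 in the Vwf-led cluster and below 0 in all other KLS cells, where 163 of the 11485 genes tested (1.42%) did. With the 9 genes used in the clustering, or with doublets kept, only Mycn kept an interval above 0 in the cluster. The log2 ratio in the cluster exceeded that outside it by 1.71 for Mycn, by 1.44 for Fgd5, by 0.82 for Prdm16, by 0.38 for Txnip and by 0.26 for Mecom. With 1 library per group the difference between the cluster and the other cells was not tested. For Mecom the interval outside the cluster ended at -0.0066, so this gene met the criterion narrowly.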

How the results depend on the processing

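No paired analysis was possible because each group is 1 library. The median log2 ratio of the 9 genes in KLS cells (-0.44) stayed below 0 in all 15 alternatives, and Hlf, Prdm16, Procr, Fgd5, Pdzk1ip1 and Ctla2a kept their direction in all of them. The median was -0.36 under the stricter cell filter, -0.41 with TMM scaling and with the mean of single-cell CPM, -0.30 with a pseudocount of 10 CPM, -0.71, -0.62, -0.83 and -0.76 in the depth bands and -0.55 outside the Vwf-led cluster. Weighting the KO clusters to control gave a median of -0.12 and 1 gene at least 1.2-fold lower, with Mecom at 0.13, Mycn at 0.20 and Txnip at 0.085, all turned. The difference in cells with Hlf, Mecom and Procr together (-2.97 points) was below 0 in all 10 alternatives: -1.08 at 3000 UMIs, -4.11 at 10000 UMIs, -10.5 without thinning, -0.57 with at least 2 UMIs of each, -1.05 under the stricter filter and -1.34 outside the Vwf-led cluster. The number at least 1.5-fold lower (4) was 0 with weighted clusters, 1 under the stricter filter or with the pseudocount, 3 outside the Vwf-led cluster and 4 to 8 in the others. The number with a share lower beyond counting error (9) was 7 with at least 2 UMIs and 8 at 3000 UMIs, under the stricter filter and outside the cluster. With at least 2 UMIs the share differences of Prdm16 (0.082 points) and Fgd5 (0.040 points) turned, and under the stricter filter that of Mecom (0.082 points) did, all within counting error. The median in the Vwf-led cluster (0.18) was 0.0091 with doublets kept. The number of genes with an interval above 0 there (5) was 1 with doublets kept or with the 9 genes in the clustering, 2 at Leiden resolution 2, 3 at equal depth, 4 in KO cells without a Stat5 UMI and 6 at resolution 0.5 or under the stricter filter. Within the cluster Hlf ranged from -0.93 to -0.75, Ctla2a from -0.79 to -0.61 and Mycn from 0.84 to 1.19 over the 7 alternatives reported, which keep to the cluster. The cell filter at 5% mitochondrial UMIs in the cluster, its equal-depth values, its KO cells without a Stat5 UMI and the sums outside it were chosen after seeing the data. The cause of these shifts was not tested.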

Other observations

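A cluster led by Ctsg and Mpo held 10 control and 690 KO cells, with a median of 4850 UMIs in KO. In its KO cells Hlf was at 118.2 CPM and Ctla2a at 421.7 CPM, both below the values over all KO cells (163.9 and 463.6 CPM). Its control cells were too few for a comparison. The genes that lead such a KO-rich cluster depended on the clustering. At Leiden resolution 0.5 a cluster of 2 control and 616 KO cells was led by Abhd2 and Slc39a1. At resolution 2 a cluster of 2 control and 595 KO cells was led by Jchain and Abhd2, and a separate one led by Ctsg and Mpo held 15 and 96 cells.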
